A study of Mus musculus with 10 samples.

Results

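The genes described here are 8 transcription factors of extraembryonic mesoderm and allantois, *Hand1*, *Tbx4*, *Pitx1*, *Foxf1*, *Gata4*, *Gata5*, *Gata6* and *Tbx20*. They were chosen by name, with earlier results of these data known, from 27998 genes in one table of unique molecular identifiers (UMIs) and 32285 genes in a second one. All 8 had a row in both tables. The first table covers 8 libraries of the male mouse ESC line E14Tg2a, 2782 cells in all, made with the v2 chemistry of the droplet kit. The second holds 3115 cells of d4 EB from the R1 line, wild type (R1 WT) or *Mll3/4* dCD, made with the v3 chemistry.

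The wild-type E14Tg2a libraries were ESC in 2i plus LIF (2i ESC), ESC in serum plus LIF (S+L ESC), d1, d2 and d3 EpiLC induced with Activin A and bFGF, EpiSC kept in the same factors, and d2 and d4 EB. Embryoid bodies of both lines were grown from d2 EpiLC in suspension with BMP4, SCF, LIF and EGF, so that this medium is shared by every EB library, R1 WT and dCD included. dCD cells carry point mutations that remove the catalytic activity of MLL3 and MLL4, the enzymes that place H3K4me1 at enhancers, and come from a clonal ESC line made in R1. In the E14Tg2a EB, 91 of 537 d2 cells and 44 of 368 d4 cells were listed by the study as primordial germ cell-like cells (PGCLC), which left 446 and 324 cells outside that list. Every condition had 1 library, so no difference below has a replicate check, and stage or genotype cannot be told apart from the library.

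Extraembryonic mesoderm arises from the posterior primitive streak in response to BMP signals and builds the allantois, the amnion, the mesoderm of the yolk sac and the chorion, and it lies next to the site where the germ cells are specified. Several of its transcription factors are used again in the heart, the lateral plate and the hindlimb. *Hand1* encodes a bHLH factor of extraembryonic mesoderm, trophoblast giant cells and heart. *Tbx4*, a T-box gene, and *Pitx1*, a homeobox gene, act in hindlimb identity, and *Tbx4* is also required in the allantois. *Foxf1* encodes a forkhead factor of extraembryonic and splanchnic mesoderm. *Gata4*, *Gata5* and *Gata6* encode zinc finger factors shared by heart, endoderm and extraembryonic lineages, and *Tbx20* is a T-box factor of the cardiac lineage.

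The annotation of GRCm38 places *Hand1* (ENSMUSG00000037335) on the minus strand at chr11:57828705-57832818 and *Tbx4* (ENSMUSG00000000094) on the plus strand of the same chromosome at chr11:85886422-85916097. *Pitx1* (ENSMUSG00000021506) lies at chr13:55825051-55836192, minus strand, and *Foxf1* (ENSMUSG00000042812) at chr8:121084386-121088144, plus strand. *Gata4* (ENSMUSG00000021944) spans chr14:63198922-63271692 and *Tbx20* (ENSMUSG00000031965) spans chr9:24718138-24774303, both on the minus strand. *Gata5* (ENSMUSG00000015627) lies at chr2:180325133-180334699, minus strand. Annotated transcripts overlap *Pitx1* (Gm28760 on its strand, Gm47071 opposite), *Foxf1* (Gm20388 on its strand, Gm27530 opposite) and *Gata5* (*Gata5os*, opposite). How shared reads were counted is not given in the sources used here, so the values of these 3 genes are uncertain to that extent. *Gata5os* itself had 0 UMIs in d2 EB, 4 in d4 EB and 1 in each R1 library.

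Promoter sequence was available for 3 of the 8 members in the RefSeq promoter table of GRCm38.p6. The windows are shown because *Tbx4* and *Gata5* were among the factors with the largest differences below and *Tbx20* had the smallest one between R1 WT and dCD. Each line gives the 250 bases before the annotated start, on the strand of the gene, with CpG dinucleotides in capitals. The windows are chr11:85896515-85896764 for *Tbx4*, whose RefSeq start lies inside the gene span given above, chr2:180334680-180334929 for *Gata5* and chr9:24774304-24774553 for *Tbx20*.
Tbx4: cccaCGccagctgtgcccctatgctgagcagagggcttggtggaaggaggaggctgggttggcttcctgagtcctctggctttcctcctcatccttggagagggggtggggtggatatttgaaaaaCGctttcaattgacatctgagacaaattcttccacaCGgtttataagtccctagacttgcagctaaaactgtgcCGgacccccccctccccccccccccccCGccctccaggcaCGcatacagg
Gata5: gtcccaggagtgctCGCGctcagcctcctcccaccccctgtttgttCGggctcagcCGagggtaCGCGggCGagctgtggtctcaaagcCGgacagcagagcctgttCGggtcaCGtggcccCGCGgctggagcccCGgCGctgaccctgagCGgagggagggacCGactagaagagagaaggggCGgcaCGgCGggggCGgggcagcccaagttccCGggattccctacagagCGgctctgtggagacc
Tbx20: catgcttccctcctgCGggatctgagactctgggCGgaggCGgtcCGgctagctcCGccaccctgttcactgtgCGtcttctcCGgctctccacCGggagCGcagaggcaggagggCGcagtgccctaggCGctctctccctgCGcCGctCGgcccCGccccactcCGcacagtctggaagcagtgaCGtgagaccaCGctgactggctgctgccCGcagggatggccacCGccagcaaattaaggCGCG

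The *Tbx4* window held 6 CpG, the median over all 32851 windows of the table, whereas the *Gata5* and *Tbx20* windows held 22 CpG each, which places them at percentile 85.2. None of the 3 windows held, on either strand, the short GATA factor motif (letters GATAA), the T-box motif (letters GGTGTG), the forkhead motif (letters GTAAACA) or the motif of OTX-type homeobox factors (letters GGATTA). Among all windows of the table, the GATA factor motif was found in 22.6%, the T-box motif in 16.3%, the forkhead motif in 3.17% and the OTX-type motif in 6.25%. The absence says only that these letters are not in these windows.

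In ESC and EpiLC the 8 factors were at or near 0. In 2i ESC, with a median of 33971 UMIs per cell, no member had more than 2 UMIs over 227 cells, and *Hand1*, *Foxf1* and *Gata5* had 0, which allows up to 1.32% of cells with a UMI (3 counts over 227 cells). Between 0 and 6 UMIs of each member were counted in S+L ESC and in d1, d2 and d3 EpiLC. EpiSC, which were not the source of the EB, differed from this pattern. There *Gata6* had 347 UMIs, or 27.2 UMIs per 1000000 UMIs of the library (CPM, 95% Poisson interval 24.4 to 30.2), in 19.6% of 373 cells, *Gata4* had 30 UMIs (2.35 CPM, 1.59 to 3.36) and *Tbx20* had 7, while each of the other 5 had 0 or 1. All intervals here cover counting error only.

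**Figure D1:**
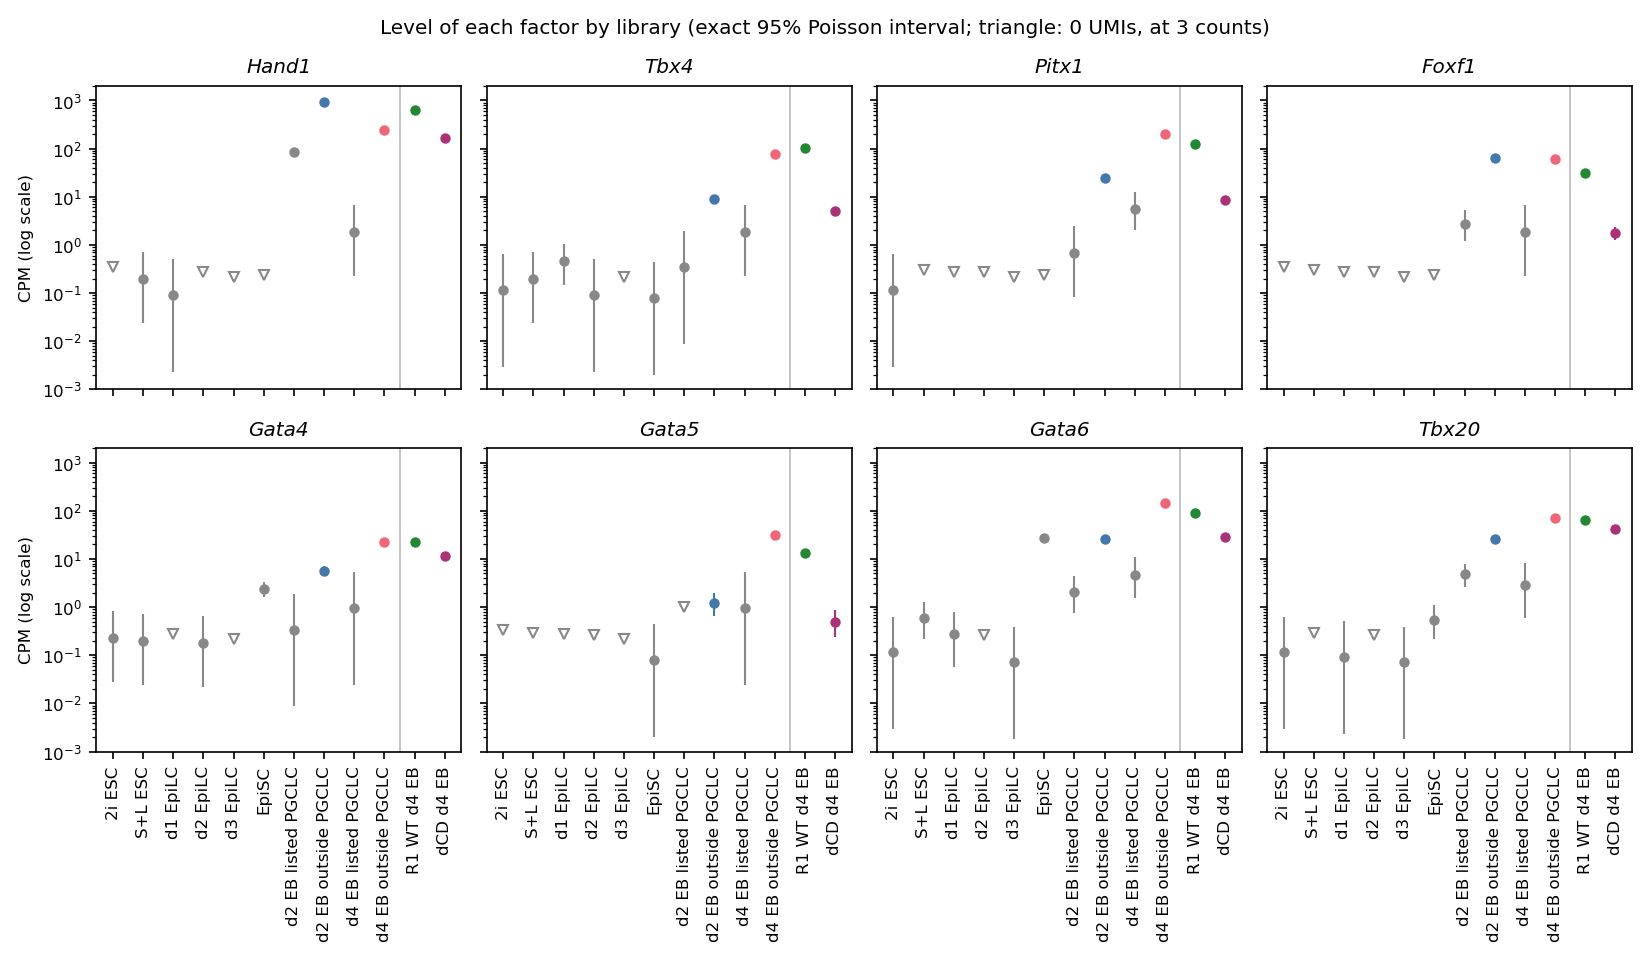
Level of each factor in CPM (log scale) in the 6 libraries of ESC, EpiLC and EpiSC, in d2 and d4 EB cells inside and outside the PGCLC list, and in the R1 WT and dCD libraries to the right of the grey line. Bars are exact 95% Poisson intervals and open triangles mark 0 UMIs, drawn at the limit of 3 counts. The 8 factors appear in EB cells outside the list, with *Gata6* also at 27.2 CPM in EpiSC and *Hand1* at 86.3 CPM in listed d2 PGCLC.

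In d2 EB cells outside the PGCLC list, *Hand1* was at 941.5 CPM (924.0 to 959.3) and had a UMI in 98.0% of cells. *Foxf1* was at 63.7 CPM in 56.7% of cells, *Tbx20* at 26.4 CPM in 40.4%, *Gata6* at 25.5 CPM in 36.3% and *Pitx1* at 25.0 CPM in 20.6%. The other 3 were detected in few d2 cells: *Tbx4* at 8.96 CPM in 12.1%, *Gata4* at 5.63 CPM in 10.8% and *Gata5* at 1.195 CPM in 2.91%. Thus at d2 the set was led by *Hand1*, present in nearly every cell outside the list, with the rest in part of them.

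Listed PGCLC carried much less. At d2 *Hand1* was at 86.3 CPM (75.9 to 97.6) in 53.8% of the 91 listed cells, and no other member was above 4.77 CPM. At d4 no member was above 5.69 CPM in the 44 listed cells, and *Hand1* was at 1.90 CPM (0.230 to 6.85). Because the study picked the PGCLC from these same cells by expression, these levels are a description of the listed cells.

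From d2 to d4, 6 of the 8 factors were higher by 2-fold or more in EB cells outside the PGCLC list, *Hand1* was lower by more than 2-fold, and *Foxf1* stayed within 2-fold. Over all 13372 genes with at least 10 UMIs in both groups together, 10.6% were higher by 2-fold or more at d4 and 4.17% were lower by that much. The median log2 ratio, computed as log2 of (CPM + 1), was 2.13 over the 8 members and 0.12 over all genes. No test was made, since cells of 1 library are not replicates.

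*Gata5* showed the largest ratio, 31.1 CPM (27.5 to 35.1) at d4 against 1.195 CPM (0.653 to 2.00) at d2, a ratio of 26.0 with a counting interval of 15.2 to 48.3. The d2 level rests on 14 UMIs. The hindlimb and allantois gene *Tbx4* was at 77.2 CPM (71.4 to 83.3) at d4 and 8.96 CPM (7.33 to 10.8) at d2, 8.61 times higher. *Pitx1* reached 204.2 CPM (194.8 to 214.0) from 25.0 CPM (22.2 to 28.0), a ratio of 8.17. These 3 genes went from a minority of d2 cells to 46.0% (*Gata5*), 67.3% (*Tbx4*) and 76.5% (*Pitx1*) of d4 cells.

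Of the other GATA factors, *Gata6* was at 145.0 CPM (137.1 to 153.4) at d4, 5.68 times its d2 level, and *Gata4* was at 22.1 CPM (19.1 to 25.5), 3.92 times its d2 level. *Tbx20* was at 69.5 CPM (64.0 to 75.3), 2.63 times higher than at d2. *Hand1* went the other way, to 244.6 CPM (234.2 to 255.3), 3.85 times lower (3.67 to 4.04), although 81.5% of d4 cells still held a UMI of it. Fewer UMIs per cell accompanied the lower level: *Hand1*-positive cells held a mean of 25.2 UMIs at d2 and 7.92 at d4. *Foxf1* was at 63.7 CPM (59.2 to 68.4) at d2 and 59.5 CPM (54.5 to 64.9) at d4, a ratio of 0.935 whose counting interval, 0.834 to 1.05, includes 1.

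**Figure D2:**
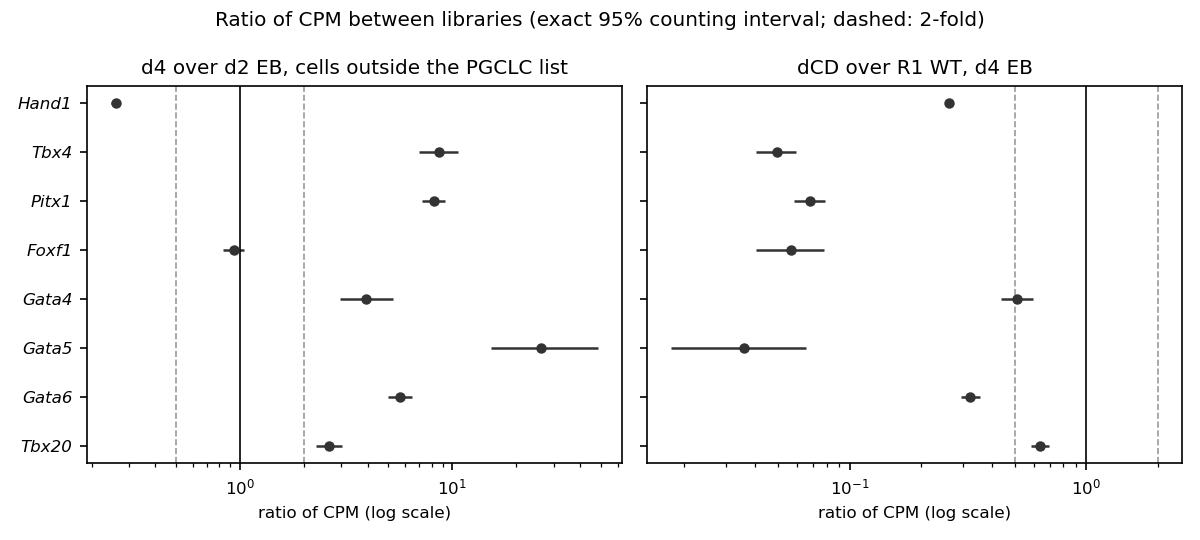
Ratio of CPM (log scale, no pseudocount) for each factor, d4 over d2 EB cells outside the PGCLC list on the left and dCD over R1 WT d4 EB on the right. Bars are exact 95% counting intervals and dashed lines mark 2-fold; on the left 6 factors lie above 2-fold and *Hand1* below, and on the right all 8 lie below 1, with *Gata4* next to the 2-fold line.

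Of 29 genes listed as an extraembryonic mesoderm programme, 13 were higher at d4 by 2-fold or more and 5 were lower, with a median log2 ratio of 0.78. The largest differences upwards were those of the collagen gene *Col3a1* (0.171 to 92.3 CPM), the bHLH gene *Twist1* (17.3 to 167.0 CPM) and the receptor gene *Pdgfra* (5.38 to 53.6 CPM). The caudal homeobox gene *Cdx2* was lower (256.7 to 28.0 CPM), and so were the ligand genes *Bmp7* (23.1 to 3.04 CPM) and *Bmp4* (89.4 to 25.0 CPM). The other 11 genes were within 2-fold.

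Among 12 genes of cardiac and lateral plate mesoderm, 7 were at least 2-fold higher and 1 lower. *Prrx1* (1.54 to 62.2 CPM), *Hand2* (5.97 to 103.5 CPM) and *Mef2c* (1.62 to 37.8 CPM) led those, and *Mesp1*, which marks nascent mesoderm, was at 102.0 CPM at d2 and 0.819 CPM at d4. Another list held paralogs of the members and the GATA cofactor genes *Zfpm1* and *Zfpm2*. Of its 13 genes with enough UMIs, 5 were higher and 0 lower. *Hand2* and *Tbx5* led them, and *Tbx5* had 0 UMIs at d2 and 13.4 CPM at d4. The remaining values named by the same rule were within 2-fold, with log2 ratios of -0.61 for *Isl1*, -0.41 for *Gata3*, -0.24 for *Tbx3*, -0.05 for *Foxc1* and 0.85 for *Tbx2*.

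Markers of other lineages also differed between d2 and d4. The summed level of 8 blood markers went from 8.71 to 1139 CPM, that of 11 endothelium markers from 167.0 to 623.7 CPM, and that of 8 primitive streak markers from 314.7 to 10.5 CPM. For 8 extraembryonic ectoderm markers the sum went from 118.0 to 687.8 CPM, but only *Rhox6* (18.2 to 363.9 CPM) and *Rhox9* (24.4 to 261.0 CPM) were higher by 2-fold or more, and the other 5 of the 7 with enough UMIs were within 2-fold. The 16 endoderm or gut markers summed to 119.2 and 99.5 CPM. Of the 9 with enough UMIs, *Cubn*, *Dab2*, *Rbp4* and *Sox7* were higher by 2-fold or more and *Epcam* was lower (78.6 to 31.4 CPM), and *Foxa1*, *Apoa1*, *Apoa2*, *Apob* and *Afp* were at 0 at d4. In d4 cells, blood markers summed to 38.5 CPM where *Pitx1* was detected and 2811 CPM where it was not, and extraembryonic ectoderm markers to 49.5 and 1654 CPM. Their part in the difference between d2 and d4 was not tested.

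Co-detection was counted after each cell had been thinned to 15374 UMIs in the E14Tg2a table, which kept 428 of 446 d2 and 293 of 324 d4 cells outside the list, and to 6831 UMIs in the R1 table, which kept 1366 of 1416 R1 WT and 1529 of 1699 dCD cells. At d4, 79.2% of cells (74.1 to 83.7) had a UMI of at least 2 factors, and 85.5% did before thinning. At d2 it was 72.9% (68.4 to 77.0), or 79.6% unthinned. The number of factors per cell differed more than these shares: the median was 2 at d2 and 5 at d4, and at least 5 factors were found in 6.54% of d2 cells (4.39 to 9.32) and 63.1% of d4 cells (57.3 to 68.7). In 2i ESC, 0 of 223 thinned cells had 2 factors, and in listed PGCLC 6.59% of 91 d2 cells and 7.89% of 38 d4 cells did.

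**Figure D3:**
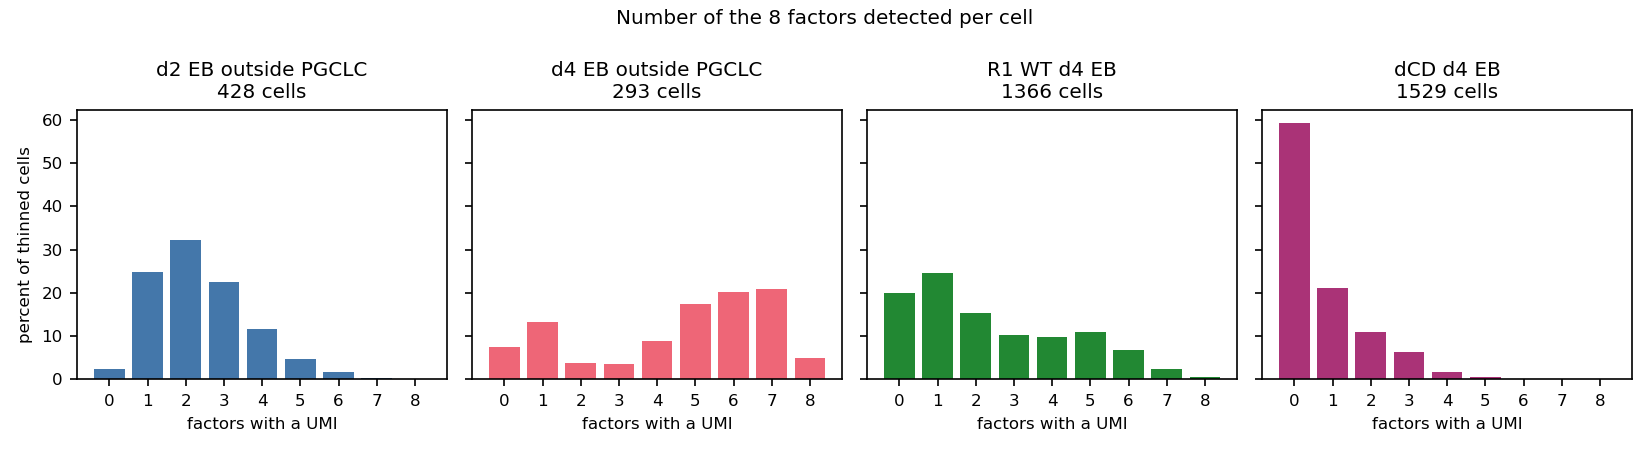
Percent of thinned cells (vertical axis) by the number of the 8 factors with a UMI (horizontal axis) in d2 and d4 EB outside the PGCLC list, R1 WT and dCD d4 EB. The median was 2 factors at d2, 5 at d4, 2 in R1 WT and 0 in dCD; the first and last pair of panels come from different kits and depths.

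At d2 *Hand1* was found in 97.2% of thinned cells, so nearly every combination included it. Its own UMIs without any other member made the most common profile, 24.3% of the thinned d2 cells, followed by *Hand1* with *Foxf1* (60 of 428 cells) and *Hand1* with *Gata6* (37 cells). Of the 12 thinned cells without *Hand1*, none had *Tbx4*, *Pitx1*, *Foxf1*, *Gata4* or *Gata5*, and 1 each had *Gata6* and *Tbx20*, but 0 of 12 allows a share of up to 26.5% (Clopper-Pearson). At d4 the most common profiles were *Hand1* alone and all members but *Gata4*, each in 9.90% of cells, and all 8 factors were found together in 4.78%. Cells with none of the 8 made up 7.51%.

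Pairs of factors were linked unequally. *Pitx1* was found in 57.9% (40.8 to 73.7) of the 38 d2 cells with *Tbx4* and in 12.8% of those without. By d4 it was found in 92.9% of 184 cells with *Tbx4* and 36.7% of those without. *Gata6* was found in 90.5% of 211 d4 cells with *Pitx1* and 25.6% of 82 without. For *Gata4* and *Gata5* the d4 shares were closer, since *Gata5* was found in 44.6% (33.7 to 55.9) of cells with *Gata4* and 36.7% (30.1 to 43.6) of those without. These are shares of cells of 1 library, which share their free RNA and depth.

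**Figure D4:**
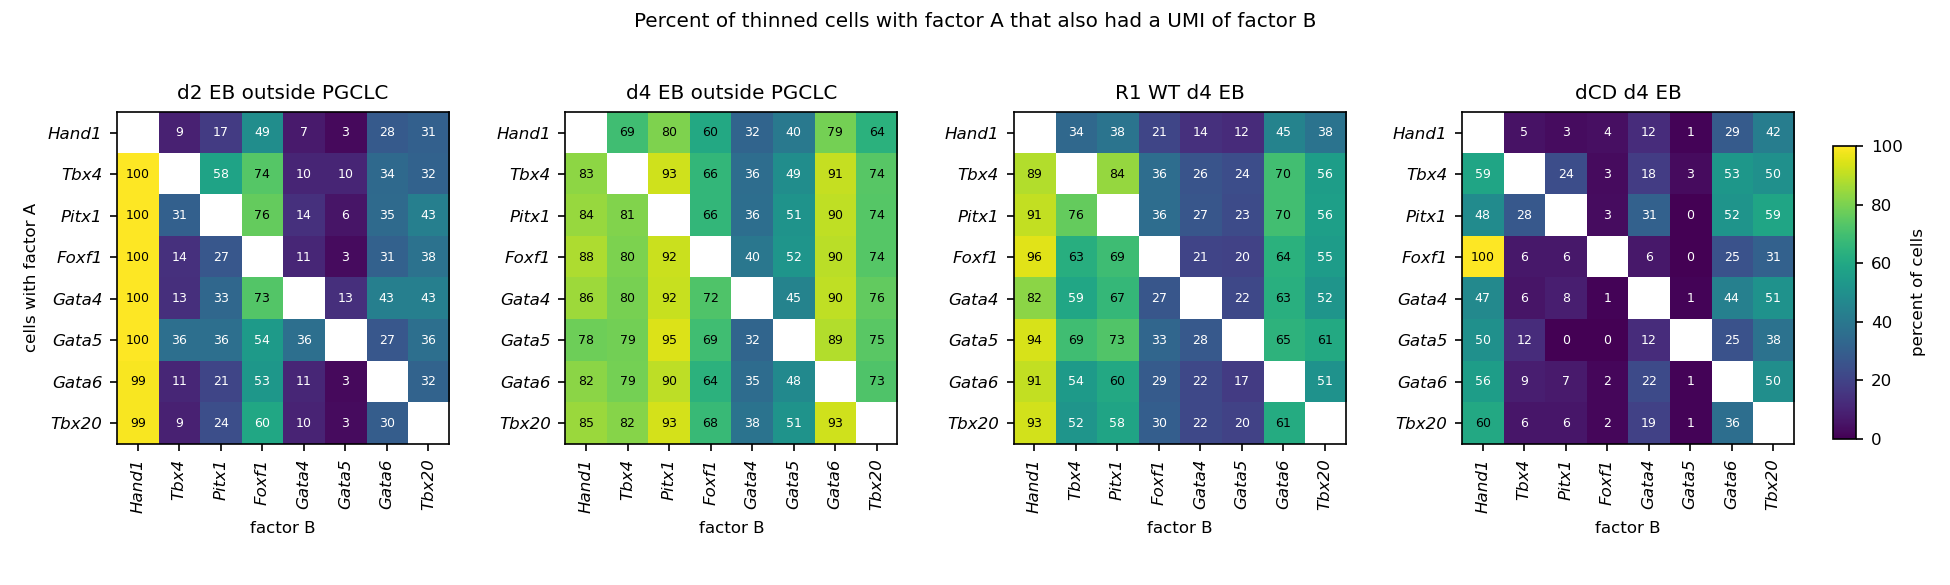
Percent of thinned cells with a UMI of factor A (rows) that also had a UMI of factor B (columns), in d2 and d4 EB outside the PGCLC list, R1 WT and dCD d4 EB; colours run from 0 to 100%. At d2 *Hand1* was found in 97.2% of all thinned cells, and in R1 WT *Pitx1* was found in 84.2% of cells with *Tbx4*, and in dCD in 23.5%.

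Not all cells with *Hand1* belonged to the same combination. At d4, 183 thinned cells (62.5%) had *Hand1* and a GATA member, and in them extraembryonic ectoderm markers summed to 79.3 CPM and the extraembryonic mesoderm programme to 3352 CPM. Another 38 of the 293 cells had *Hand1* and no GATA member. In those, extraembryonic ectoderm markers reached 2273 CPM and the programme 1925 CPM. The ectoderm list includes *Rhox6* and *Rhox9*, its only genes at least 2-fold higher at d4 than at d2, and its genes were not read singly here. Conversely, 47 cells had a GATA member without *Hand1*, with blood markers at 4243 CPM and endothelium markers at 1157 CPM, against 39.3 and 246.8 CPM where both were found. The 25 cells with neither had these markers at 3818 and 1746 CPM. In this library, high sums of both lists thus went with no *Hand1* UMI after thinning, with or without a GATA member. The blood sums of R1 WT did not follow this. They were 74.6 CPM with a GATA member alone, 72.0 CPM with both, 95.9 CPM with *Hand1* alone and 222.8 CPM with neither. In dCD the cells with neither had 8.94 CPM. Of the GATA members in E14Tg2a d4 cells, *Gata6* was the one whose positive cells held nearly as much blood signal (1176 CPM) as the negative ones (1220 CPM). For *Gata4* it was 42.6 against 1533 CPM and for *Gata5* 41.6 against 1741 CPM.

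R1 WT d4 EB gave levels of the same set in a second line, which are set beside those of E14Tg2a without a comparison, because line, kit and depth (a median of 13188 UMIs per cell in R1 WT and 21658 in E14Tg2a d4 EB) all differed. In R1 WT, *Hand1* was at 625.6 CPM in 78.2% of cells and at 217.9 CPM in 72.3% of all E14Tg2a d4 EB cells. *Pitx1* was at 126.4 CPM in 36.4% of R1 WT cells and at 182.4 CPM in 69.0% of E14Tg2a cells. For *Tbx4* the values were 101.2 CPM in 33.6% and 68.9 CPM in 59.8%, and for *Foxf1* 30.8 CPM in 24.8% and 53.2 CPM in 53.5%. *Gata4* was at 22.6 and 19.8 CPM, *Gata5* at 13.4 and 27.8 CPM, *Gata6* at 88.6 and 129.6 CPM and *Tbx20* at 64.5 and 62.2 CPM.

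All 8 factors were lower in dCD than in R1 WT d4 EB, and for 6 of them, *Hand1*, *Tbx4*, *Pitx1*, *Foxf1*, *Gata5* and *Gata6*, the difference was at least 2-fold. Over all 16272 genes with at least 10 UMIs, 3.68% were lower by 2-fold or more in dCD and 6.31% were higher by that much, and 0 of the 8 members were higher. The median log2 ratio was -2.60 over the members and 0.03 over all genes. The mutated genes themselves were at like levels, as point mutations need not remove a transcript: *Kmt2c* (MLL3) was at 47.5 CPM in R1 WT and 53.8 CPM in dCD, and *Kmt2d* (MLL4) at 29.4 and 29.1 CPM.

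The 4 factors with the largest differences were 14.8 to 27.9 times lower. *Gata5* was at 13.4 CPM (11.9 to 15.1) in R1 WT and 0.481 CPM (0.240 to 0.860) in dCD, 27.9 times lower with a counting interval of 15.3 to 56.5. *Tbx4* was at 101.2 CPM (96.9 to 105.6) and 4.98 CPM (4.11 to 5.98), 20.3 times lower (16.8 to 24.8). *Foxf1* was at 30.8 CPM (28.5 to 33.3) and 1.75 CPM (1.25 to 2.38), 17.6 times lower (12.8 to 24.9), and *Pitx1* at 126.4 CPM (121.6 to 131.3) and 8.56 CPM (7.41 to 9.85), 14.8 times lower (12.8 to 17.1). Their shares of cells with a UMI went from 14.6% to 0.647% for *Gata5*, 33.6% to 3.12% for *Tbx4*, 24.8% to 1.71% for *Foxf1* and 36.4% to 2.53% for *Pitx1*.

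Such low shares need a comparison with cells that are not expected to use these factors. Cells with UMIs of at least 2 of the PGC genes *Prdm14*, *Dppa3*, *Nanos3* and *Dnd1* were taken for this, 128 in R1 WT (median 15508 UMIs per cell) and 123 in dCD (median 18159), against a median of 11751 UMIs over all dCD cells. In the dCD cells of this kind, *Tbx4* and *Pitx1* had a UMI in 0.813% each, and *Foxf1* and *Gata5* in 0 cells. The shares over the whole dCD library were higher than these values of the same library, but 1 of 123 cells has an interval up to 4.45% and 0 of 123 allows up to 2.44%. For these 4 genes no difference in the share of cells was thus detectable at this number of cells. By level, *Tbx4* was at 0.824 CPM (0.0998 to 2.98) in the dCD cells with PGC genes and *Pitx1* at 2.88 CPM (1.16 to 5.94). Both intervals lay below those of the whole dCD library (4.11 to 5.98 and 7.41 to 9.85 CPM). Each of the 2 levels rests on 1 cell. *Foxf1* and *Gata5* had 0 UMIs in the dCD cells with PGC genes, with a limit of 1.24 CPM. In the R1 WT cells of this kind the shares were 4.69% for *Tbx4*, 3.12% each for *Pitx1* and *Foxf1* and 2.34% for *Gata5*. That group is not free of cells with the factors, since 4 of the 128 held at least 5 members and its *Pitx1*-positive cells had a mean of 4.75 UMIs. After thinning, the shares over the whole dCD library were 2.22% for *Tbx4*, 1.90% for *Pitx1*, 1.05% for *Foxf1* and 0.523% for *Gata5*. In the dCD cells with PGC genes they were then 0.820% for *Tbx4* and 0 for the other 3.

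*Hand1* and *Gata6* differed less. *Hand1* was at 625.6 CPM (614.9 to 636.5) in R1 WT and 165.2 CPM (160.0 to 170.5) in dCD, 3.79 times lower, and its UMIs were found in 78.2% and 29.3% of cells. *Gata6* was at 88.6 CPM (84.6 to 92.8) and 28.7 CPM (26.5 to 31.0), 3.09 times lower, in 47.0% and 19.0% of cells. In the dCD cells with PGC genes, *Hand1* was found in 6.50% and *Gata6* in 3.25%, and in those of R1 WT in 14.8% and 3.91%.

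*Gata4* and *Tbx20* stayed within 2-fold. *Gata4* was at 22.6 CPM (20.6 to 24.7) and 11.5 CPM (10.2 to 13.01), a ratio of 1.96 whose interval of 1.68 to 2.29 includes 2. *Tbx20*, with 64.5 CPM (61.0 to 68.0) and 41.1 CPM (38.5 to 43.8), had the smallest difference of the 8, 1.57 times lower (1.44 to 1.71). *Tbx20* was found in 42.7% of R1 WT and 26.8% of dCD cells, and *Gata4* in 22.0% and 10.0%, against 3.25% and 1.63% in the dCD cells with PGC genes.

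A single cell weighed on *Pitx1* in dCD. It held 65 of the 196 *Pitx1* UMIs of that library, and the 11 cells with at least 5 UMIs held 71.4% of them. In those 11 cells *Foxf1* and *Gata5* were at 0, *Tbx4* was at 61.1 CPM, and endoderm or gut markers summed to 1024 CPM. Over the whole libraries these markers summed to 524.6 CPM in dCD and 194.4 CPM in R1 WT. The 231 R1 WT cells with at least 5 *Pitx1* UMIs had *Tbx4* at 340.1 CPM and endoderm or gut markers at 43.3 CPM. Without the cell of 65 UMIs the log2 ratio of *Pitx1* was -4.24 in place of -3.74. The marker sums of the 11 cells were not computed without that cell.

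At least 2 factors were found together in 55.5% (52.8 to 58.1) of thinned R1 WT cells and in 19.6% (17.7 to 21.7) of dCD cells; unthinned, the shares were 64.6% and 27.5%. At least 5 factors were found in 20.3% (18.2 to 22.5) of R1 WT and 0.589% (0.269 to 1.11) of dCD cells. None of the 8 was found in 19.9% of R1 WT and 59.3% of dCD cells. Among the R1 WT cells with PGC genes, 4.76% of 126 thinned cells had at least 2 factors.

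The most common R1 WT profiles with several factors were *Hand1* with *Gata6* (4.69%) and *Hand1* with *Tbx20* (4.47%), followed by *Hand1*, *Tbx4*, *Pitx1*, *Gata6* and *Tbx20* together (3.07%). In dCD they were *Hand1* with *Tbx20* (4.58%) and *Hand1*, *Gata6* and *Tbx20* (3.01%), and *Tbx20* alone was found in 4.84% of cells. None of the 6 most common dCD profiles held *Tbx4*, *Pitx1*, *Foxf1*, *Gata4* or *Gata5*. The 6 most common R1 WT profiles likewise held no *Foxf1*, *Gata4* or *Gata5*.

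*Tbx4* and *Pitx1* were the most tightly linked pair in R1 WT. *Pitx1* was found in 84.2% (80.2 to 87.7) of 387 cells with *Tbx4* and in 10.4% of 979 cells without, and *Tbx4* in 76.2% of 428 cells with *Pitx1* and in 6.50% of those without. In dCD, where both genes were found in few cells, *Pitx1* was in 23.5% (10.8 to 41.2) of 34 cells with *Tbx4* and 1.40% of those without. All 16 thinned dCD cells with *Foxf1* also had *Hand1*, while 25.8% of the 1513 cells without *Foxf1* did, so its few UMIs were not spread evenly over the library.

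*Gata4* was found both with and without *Hand1*. Of 171 R1 WT cells with *Gata4*, 82.5% had *Hand1*, against 72.8% of those without. In dCD it was 47.2% of 108 cells with *Gata4* and 25.1% of those without, and *Tbx20* was found in 50.9% of the *Gata4* cells. *Hand1* was found in 48.3% (29.45 to 67.47) of 29 dCD cells with *Pitx1* and in 50.0% (15.7 to 84.3) of 8 with *Gata5*. These are too few cells to compare with the *Gata4* share. The 6 R1 WT cells with at least 5 *Gata4* UMIs had endoderm or gut markers at 1648 CPM and *Hand1* at 149.0 CPM, and the 4 such dCD cells had 1629 CPM and no *Hand1* UMI. These 4 dCD cells had *Pitx1* at 682.9 CPM, so they overlap the dCD cells with at least 5 *Pitx1* UMIs given above. In dCD the 22 cells with at least 5 *Gata6* UMIs also had endoderm or gut markers at 1071 CPM. In all R1 WT cells with *Gata4*, endoderm or gut markers summed to 268.2 CPM against 184.8 CPM without it, while for the other 7 factors the level was lower in the positive than in the negative cells.

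The difference was next read within cells that had a *Hand1* UMI after thinning, 1011 in R1 WT and 407 in dCD. These cells differed in make-up between the libraries, so cell type is not held fixed: 534 of the 1011 and 149 of the 407 had a GATA member, and in those without one extraembryonic ectoderm markers summed to 179.0 CPM in R1 WT and 628.8 CPM in dCD, and endoderm or gut markers to 147.3 and 489.0 CPM. In them *Hand1* itself was at 845.5 CPM (830.8 to 860.4) and 584.5 CPM (565.3 to 604.2). *Tbx4* was at 120.5 and 10.97 CPM, *Pitx1* at 156.7 and 8.98 CPM, *Foxf1* at 39.6 and 6.15 CPM and *Gata5* at 16.9 and 0.998 CPM, so that 4 factors were at least 2-fold lower in dCD within these cells too. *Gata6* was at 108.2 CPM (103.0 to 113.7) and 58.7 CPM (52.7 to 65.1), and *Gata4* at 23.3 CPM (20.9 to 25.9) and 16.8 CPM (13.7 to 20.4). *Tbx20* was higher in dCD here, at 93.4 CPM (85.9 to 101.5) against 79.8 CPM (75.3 to 84.4), and was found in 42.5% (37.6 to 47.5) and 37.9% (34.9 to 41.0) of these cells after thinning. In cells without a *Hand1* UMI after thinning it was at 19.9 CPM (17.8 to 22.2) in dCD and 18.2 CPM (14.8 to 22.2) in R1 WT. *Tbx20* was thus lower in dCD over the whole library but in neither class of cells. *Hand1* was found in 26.6% of thinned dCD and 74.0% of thinned R1 WT cells. The classes are not matched: before thinning, *Hand1* in the cells without its UMI was at 5.93 CPM in dCD and 27.4 CPM in R1 WT. The part of these shares in the *Tbx20* difference was not tested.

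**Figure D5:**
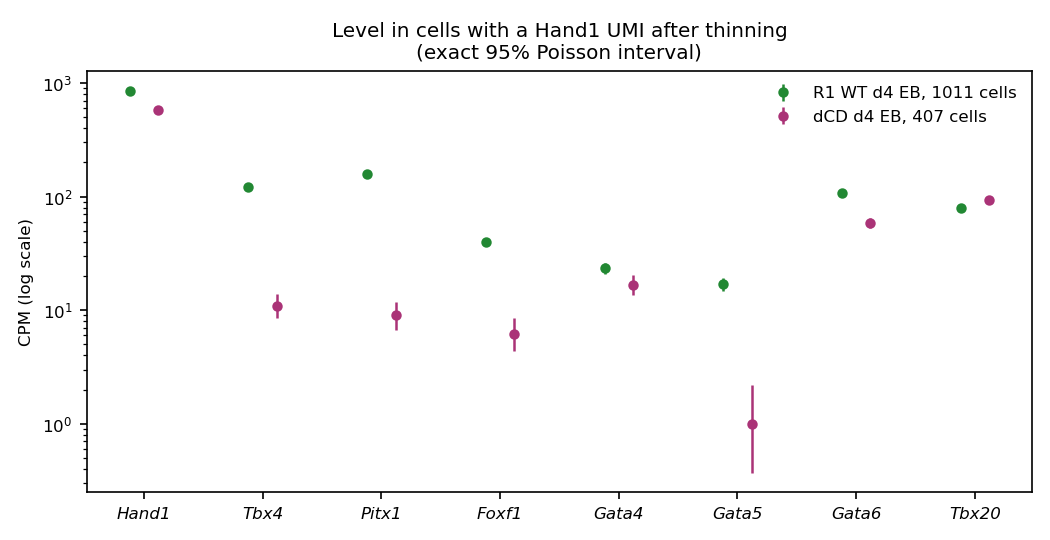
Level of each factor in CPM (log scale) in the 1011 R1 WT and 407 dCD d4 EB cells with a *Hand1* UMI after thinning; bars are exact 95% Poisson intervals. *Tbx4*, *Pitx1*, *Foxf1* and *Gata5* were far lower in dCD, *Hand1*, *Gata4* and *Gata6* were lower by less than 2-fold, and *Tbx20* was at 93.4 CPM in dCD and 79.8 CPM in R1 WT.

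Other genes of the programme were lower in dCD as well. Of the 29 listed genes, 24 were at least 2-fold lower and 0 higher, with a median log2 ratio of -1.83. The largest differences were in the smooth muscle actin gene *Acta2* (263.5 to 10.3 CPM) and the collagen genes *Col1a1* (350.6 to 27.9 CPM) and *Col3a1* (23.7 to 2.14 CPM). Within *Hand1*-positive cells of each library the programme summed to 5941 CPM in R1 WT and 3526 CPM in dCD, and in negative cells to 1667 and 957.2 CPM. *Fendrr*, a long non-coding RNA next to *Foxf1*, was at 5.003 CPM (4.08 to 6.07) and 0.437 CPM (0.209 to 0.803).

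Cardiac and lateral plate genes split in direction, with 3 of 12 at least 2-fold lower and 2 higher. *Prrx1* (43.6 to 11.8 CPM), *Hand2* (101.7 to 30.9 CPM) and the chromatin remodelling subunit gene *Smarcd3* (17.8 to 8.21 CPM) were lower. *Nkx2-5*, a homeobox gene of the early heart, was higher (1.12 to 15.99 CPM), and so was the atrial light chain gene *Myl7* (0.534 to 6.16 CPM), while *Myl4* had a log2 ratio of 0.96. Of 14 genes in the list of paralogs and GATA cofactors, the paralogs *Tbx2* (49.6 to 12.0 CPM) and *Hand2* and the cofactor gene *Zfpm2* (6.07 to 1.14 CPM) were lower. In that list 0 were higher, with *Foxc1* at a log2 ratio of 0.41 and *Gata3* at 0.03.

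Some summed levels of other lineage markers differed between the 2 R1 libraries in the same comparison. Endoderm or gut markers summed to 194.4 CPM in R1 WT and 524.6 CPM in dCD, with 4 of 14 genes at least 2-fold higher and 10 within 2-fold. *Apoa2* and *Afp* were at 0 in R1 WT. The sum does not measure endoderm cells alone. In the dCD cells with PGC genes it was 489.1 CPM, although 8 of the 16 listed genes were at 0 there. Extraembryonic ectoderm markers went from 119.9 to 333.1 CPM with 4 of 7 higher, naive pluripotency markers from 506.2 to 711.1 CPM with 3 of 6 higher, and blood markers from 114.2 to 27.5 CPM with 4 of 7 lower and *Hbb-bh1*, *Hba-x* and *Hbb-y* at 0 in dCD. The naive list includes the paralog *Tbx3*. In E14Tg2a d4 EB cells outside the PGCLC list that gene alone made 142.4 of the 318.2 CPM of the naive sum. Endothelium markers were at 126.7 and 108.2 CPM with 3 of 11 lower. PGC markers (108.0 and 103.6 CPM) and primitive streak markers (39.5 and 34.9 CPM) had 0 genes past 2-fold. The part of these differences in the lower member levels was not tested beyond the cells with *Hand1* given above.

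Genes whose pattern over cells was most like that of each factor were found by Pearson's r of log-transformed UMIs per 10000, which is a description over cells of 1 library that share its depth. In the 1416 R1 WT cells, *Tbx4* and *Pitx1* were each other's closest gene among 10568 compared (r = 0.774), and both were next closest to *Twist1* (0.684 and 0.664) and the proteoglycan gene *Vcan* (0.668 and 0.648). The gene closest to *Gata6* (0.617) and to *Tbx20* (0.559) was *Vcan* as well. *Hand1* was closest to *Cd24a* (0.748), *Serpinh1* (0.695) and *Cald1* (0.692). *Foxf1* was closest to *Pitx1* (0.487), *Gata5* to *Pitx1* (0.375) and *Gata4* to *Gpx3* (0.401).

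In the 324 E14Tg2a d4 EB cells outside the PGCLC list, *Pitx1* and *Gata6* were each other's closest gene (r = 0.714), both followed by *Twist1* (0.711 and 0.656) and *Prrx2* (0.646 and 0.621). *Tbx4* was closest to *Vcan* (0.596), *Foxf1* and *Tbx20* to *Twist2* (0.594 and 0.582), *Gata5* to *Pitx1* (0.412) and *Gata4* to *Smad6* (0.377). *Hand1* was closest to *Pmp22* (0.437), *Msx2* (0.386) and *Pitx1* (0.384). In both lines *Pitx1* was among the 3 closest genes of *Foxf1*, *Gata5* and *Gata6*.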

How the data were processed

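UMI counts per gene and cell were deposited by the authors in 2 tables. Per the study's methods, the E14Tg2a libraries were aggregated with Cell Ranger to equal mapped reads per cell, and R1 cells with fewer than 2000 expressed genes were removed; the build was mm10, and the gene annotation is not given in the sources used here. The libraries held 8757170 to 22887974 UMIs, with medians of 11751 to 36750 per cell. Libraries of the E14Tg2a table shared 8 barcodes over all pairs and those of R1 shared 0. Scrublet (scanpy 1.11.5) called 0.589% to 6.23% of cells as doublets, which were kept.

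For each group, UMIs were totalled across cells and expressed as CPM, with exact 95% Poisson intervals. Ratios have exact conditional intervals, and log2 ratios a pseudocount of 1 CPM. Shares have Clopper-Pearson intervals, after thinning without replacement. UMIs of 0 were given a limit of 3 counts. No test was made, because each condition had 1 library. The calculations were tested on simulated data. PGCLC were the barcodes the study listed. The members, gene lists and thresholds were chosen with earlier results of these data known. All 8 members were named, with genes of 3 lists holding at least 50 UMIs and among the 3 largest increases or decreases, and for each member up to 3 closest genes with r of at least 0.3 among those found in at least 5% of cells; *Fendrr*, *Gata5os*, and markers at 0 were named after their values were seen.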

Additional observations from a re-analysis of the deposited data

How the results depend on the processing

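The counts of members past 2-fold stayed within 1.5 times of the reported ones under every alternative that was run: another pseudocount, UMI minimum, scaling, thinning, threshold, doublets left out, all EB cells, and PGC-marked cells left out. No member past 2-fold reversed under any of them. Scaling by the median ratio shifted all genes by 0.11 (log2) between d2 and d4, and *Foxf1*, within 2-fold, turned from -0.10 to 0.18 in thinned cells, 0.15 by the mean over cells and 0.05 over all EB cells. A pair of alternatives was chosen after seeing the data. Within cells with a *Hand1* UMI, 4 members were at least 2-fold lower in dCD in place of 6, and *Tbx20* turned from -0.64 to 0.23. Leaving out the dCD cell with most *Pitx1* UMIs left 6.

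The shares with at least 2 factors moved beyond their intervals without thinning, to 85.5% at d4, 64.6% in R1 WT and 27.5% in dCD. Requiring 3 factors gave 40.3% in R1 WT and 8.63% in dCD, and all d4 EB cells gave 71.0%. Of 144 single-gene values, 23 moved beyond their counting interval. With 1 library per condition, depth limits only counting error; the spread between libraries is unknown. No paired analysis was possible because each group had 1 library.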

Other observations

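Outside the EB libraries, *Gata6* was the one member with a sizeable level. This was in EpiSC, where 347 UMIs lay in 19.6% of cells while *Hand1*, *Pitx1* and *Foxf1* had 0. The EB were grown from d2 EpiLC, not from EpiSC. Primitive streak markers summed to 466.0 CPM in the EpiSC library and to at most 46.6 CPM in the ESC and EpiLC libraries. Endoderm or gut markers summed to 388.3 CPM in EpiSC, 414.0 CPM in d2 EpiLC and 453.0 CPM in d3 EpiLC, and *Gata6* had 0 and 1 UMI in the EpiLC. This sum is not a measure of endoderm cells here. In d2 EpiLC it was 414.0 CPM although *Foxa1*, *Sox7*, *Ttr* and *Afp* had 0 UMIs. Which cell type the *Gata6* cells of EpiSC are was not tested.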
